A study of Mus musculus with 8 samples.

Results

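The genes described here are 10 genes of the contractile cytoskeleton and of transcription through SRF and TEAD factors: *Acta2*, *Actg2*, *Tagln*, *Cnn1*, *Myl9*, *Tpm1*, *Nexn*, *Ccn2*, *Ccn1* and *Vgll3*. *Ctgf* is the older name of *Ccn2* and *Cyr61* that of *Ccn1*. Each gene was measured by 1 transcript cluster, the group of probes that reads the whole of a gene, and none of these 10 was shared with another gene. They make up 10 of 23410 named transcript clusters. The 10 genes were picked with the genotype results of these arrays known, and *Nexn* and *Ccn2* are also among the genes that the study selected on the same arrays. Their genotype differences are therefore given as a description. Where a threshold is mentioned for them on this contrast, it is not an independent test. The comparison between differentiation batches, and the comparison of the genotype difference between batches, were not used to pick them and were tested.

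R1 mouse ES cells were differentiated in N2B27, a serum-free medium that turns ES cells into neural progenitor (NP) cells, and RNA was taken at Day 4. *Sox3* null cells carry a GFP reporter knocked into *Sox3*, a SoxB1 transcription factor gene of NP cells. Control cells are R1 cells with a conditional *Sox3* allele, labelled *Sox3* positive and called wild type in the study's methods. There were 4 cultures of each genotype on 8 Affymetrix Mouse Gene 1.0 ST arrays, 2 of each genotype in each of 2 independent differentiations, called batch 1 (replicates 1 and 2) and batch 2 (replicates 3 and 4). The labels name no separate clones of a genotype, so genotype and ES cell line cannot be told apart, and the p-values measure the spread between cultures of these lines. The labels say that the ES cells were kept on gelatine-coated plates, whereas the study's methods name irradiated feeder cells.

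SRF is a transcription factor that binds the CArG box, an A/T-rich element flanked by CC and GG, in promoters of actin and other contractile genes. Its cofactors of the MRTF family are held in the cytoplasm by free actin monomers and enter the nucleus when actin polymerises. Its ternary complex cofactors, of the Elk group, drive immediate early genes instead. TEAD factors bind GGAATG-like elements and are switched on by YAP and TAZ, which the Hippo kinases hold back, and Vgll proteins compete for or share the TEAD surface. *Ccn1* and *Ccn2* are widely used readouts of YAP and TEAD, and both also respond to SRF.

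The promoters are shown because the genes were grouped by the factors that act on such elements. RefSeq start sites on GRCm38.p6 were at hand for 6 of the 10 genes: *Acta2*, *Cnn1*, *Myl9*, *Tpm1*, *Ccn1* and *Vgll3*. For *Acta2*, *Myl9* and *Tpm1* the start site used lies inside the gene span given further below. Their distances are therefore counted from that internal start site, not from the outer end of the gene. The stretches shown for *Acta2* and *Tpm1* lie inside the gene spans. Searched over the 250 bases before the start site on both strands, a CArG box was found in 1 of the 6 (*Myl9*), and a CArG box with 1 G or C inside its A/T core in 2 (*Acta2* and *Myl9*). GGAATG, read as CATTCC on the other strand, was found in 4 (*Acta2*, *Tpm1*, *Ccn1* and *Vgll3*). Of 32851 RefSeq promoter windows of the same length, 1.47% held a CArG box, 7.24% a CArG box with 1 G or C in the core and 12.6% GGAATG. These matches describe letters in a window and no binding was measured. In the lines below the matched letters are in capitals and each stretch reads 5′ to 3′ along the gene's own strand.
Acta2, first CArG-like box, chr19:34255438-34255467, minus strand: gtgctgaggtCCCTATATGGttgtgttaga
Acta2, second CArG-like box, chr19:34255388-34255417, minus strand: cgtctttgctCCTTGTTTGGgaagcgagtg
Acta2, GGAATG, chr19:34255502-34255531, minus strand: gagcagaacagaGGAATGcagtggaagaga
Myl9, CArG box and CArG-like box, chr2:156775264-156775407, plus strand: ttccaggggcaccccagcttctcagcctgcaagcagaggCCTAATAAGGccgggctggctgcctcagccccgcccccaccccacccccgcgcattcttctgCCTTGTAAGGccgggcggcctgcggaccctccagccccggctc
Tpm1, GGAATG, chr9:67049252-67049281, minus strand: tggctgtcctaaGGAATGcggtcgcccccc
Ccn1, CATTCC, chr3:145649986-145650185, minus strand: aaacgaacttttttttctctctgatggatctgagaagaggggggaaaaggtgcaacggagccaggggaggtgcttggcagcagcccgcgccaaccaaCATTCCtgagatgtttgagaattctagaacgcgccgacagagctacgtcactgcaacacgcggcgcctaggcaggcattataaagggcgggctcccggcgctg
Vgll3, CATTCC, chr16:65814989-65815188, plus strand: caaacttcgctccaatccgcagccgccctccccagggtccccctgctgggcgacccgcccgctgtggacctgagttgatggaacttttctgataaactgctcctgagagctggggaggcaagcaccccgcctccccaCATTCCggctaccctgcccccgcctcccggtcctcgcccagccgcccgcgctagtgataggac
Counted from the start site, the CArG-like boxes of *Acta2* (those with 1 G or C in the core) ended at -75 and -25 and the CArG box of *Myl9* ended at -152. The GGAATG letters ended at -58 in *Vgll3*, -51 in *Tpm1* and -98 in *Ccn1*.

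As a check of the labels, *Sox3* itself had log2 signals of 9.92, 9.84, 9.73 and 9.76 in control replicates 1 to 4 and 8.39, 8.56, 8.67 and 8.37 in *Sox3* null replicates 1 to 4, a log2 fold change of -1.31 (SE 0.08, adjusted p = 3.87e-05 from limma). Over all named transcript clusters, the share that passed an adjusted p of 0.05 in limma's fit with genotype and batch was 1.15% higher and 0.393% lower in null cells. The share that also changed 1.4-fold or more was 0.431%. Array medians lay between 7.63 and 7.70 on the log2 scale.

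Several patterns were seen among the 10 genes. *Nexn*, *Ccn2* and *Acta2* were higher and *Vgll3* was lower in *Sox3* null cells in both batches, *Tagln* was higher by 0.19 in batch 1 and 0.88 in batch 2, and *Actg2*, *Cnn1*, *Myl9*, *Tpm1* and *Ccn1* differed by a log2 fold change of 0.19 or less. Of the 10, 9 had an estimate above 0, and 3 of the 10 (*Acta2*, *Nexn* and *Vgll3*) met both the adjusted p and the 1.4-fold threshold. *Ccn2* met the adjusted p only, which makes 3 higher and 1 lower by that measure. Nothing is read from these counts, since the genes were picked on this contrast. The study's own list holds *Ccn2* above its 1.4-fold threshold and does not hold *Acta2* or *Vgll3*. It also gives *Sox3* a larger fold change than found here, so the study's fit and values differ from these. In the bulk RNA of a culture, a higher level per cell and a larger share of cells that express a gene cannot be told apart.

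**Figure D1:**
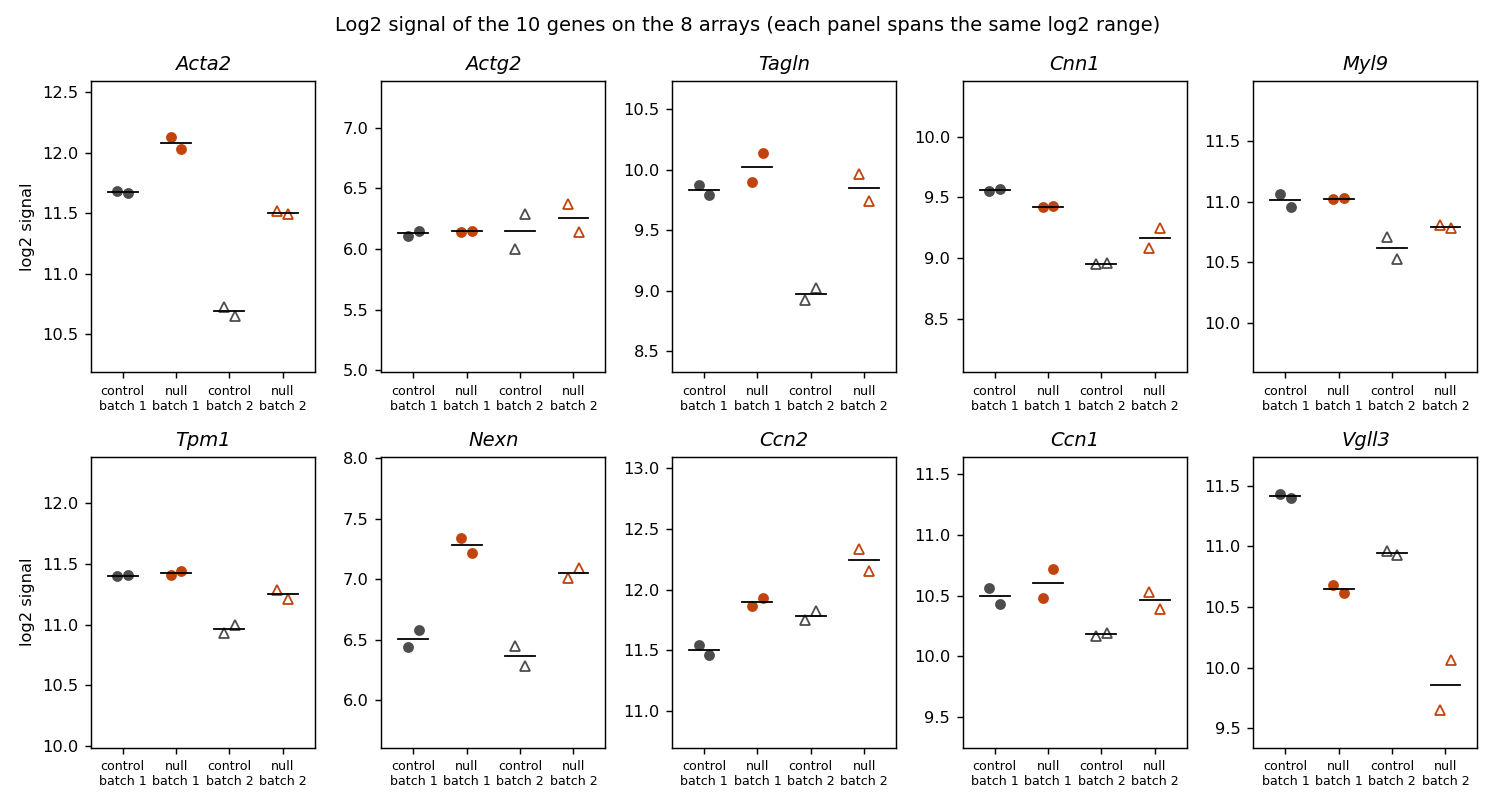
Log2 signal of each of the 10 genes (vertical axes, each spanning the same log2 range) in control (grey) and *Sox3* null (orange) cultures of batch 1 (filled circles) and batch 2 (open triangles). Each point is 1 array and each line the mean of 2 arrays. *Nexn*, *Ccn2*, *Acta2* and *Tagln* lie higher and *Vgll3* lower in null cells of both batches, and the control arrays of batch 2 are the lowest for *Acta2*, *Tagln*, *Cnn1*, *Myl9*, *Tpm1* and *Ccn1*.

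Among the actin genes, *Acta2* (chr19:34240336-34255585, minus strand) encodes smooth muscle alpha-actin, which is also made by fibroblasts and by immature cells that pull on their substrate. Signals on the log2 scale were 11.68 and 11.67 in the control and 12.13 and 12.03 in the null cultures of batch 1, and 10.73 and 10.65 in the control and 11.52 and 11.49 in the null cultures of batch 2. The null arrays lay above the control arrays within each batch, while the null arrays of batch 2 lay below the control arrays of batch 1. The mean was 11.2 ± 0.566 (SD, n = 4) in control and 11.8 ± 0.335 (SD, n = 4) in null cells, and the log2 fold change with batch in the fit was 0.61 (SE 0.08), or 1.53-fold. It was 0.41 within batch 1 and 0.81 within batch 2. *Actg2* (chr6:83512909-83536251), which encodes smooth muscle gamma-actin, was dim. The log2 signal was 6.11, 6.15, 6.00 and 6.29 in control replicates 1 to 4 and 6.14, 6.15, 6.37 and 6.14 in null replicates 1 to 4. The groups overlapped in both batches, and the log2 fold change was 0.06 (SE 0.07) with a 95% interval of -0.10 to 0.23.

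The actin-binding proteins of smooth muscle differed from each other. *Tagln* (chr9:45929628-45936058) encodes transgelin, an actin cross-linker and a classical SRF target. Its log2 signal was 9.87 and 9.79 in control and 9.90 and 10.14 in null cultures of batch 1, and 8.92 and 9.02 in control and 9.96 and 9.74 in null cultures of batch 2. The null arrays of the pair of batches were close to each other, and the control arrays of batch 2 stood about 0.86 below those of batch 1. The log2 fold change was 0.53 (SE 0.13), or 1.45-fold, with 0.19 within batch 1 and 0.88 within batch 2. *Cnn1* (chr9:22099221-22109221) encodes calponin, an actin-binding regulator of myosin. Calponin signals were, in log2, 9.55 and 9.57 in control and 9.42 and 9.43 in null cultures of batch 1, and 8.95 and 8.96 in control and 9.08 and 9.25 in null cultures of batch 2. Null arrays were thus below the control arrays in batch 1 (difference -0.13) and above them in batch 2 (0.21), and the log2 fold change over both was 0.04 (SE 0.07). It became -0.03 without null replicate 4.

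*Myl9* (chr2:156775408-156781657) encodes a regulatory light chain of non-muscle and smooth muscle myosin. Its log2 signal was 11.06 and 10.96 in control and 11.02 and 11.03 in null cultures of batch 1, and 10.71 and 10.53 in control and 10.81 and 10.78 in null cultures of batch 2. The groups overlapped in batch 1 and not in batch 2, and the log2 fold change was 0.10 (SE 0.06). *Tpm1* (chr9:67022590-67049672), which encodes a tropomyosin that lies along actin filaments, had 11.40 and 11.41 in control and 11.41 and 11.44 in null cultures of batch 1, and 10.93 and 11.00 in control and 11.29 and 11.21 in null cultures of batch 2. Its within-batch differences were 0.01 and 0.29, and its log2 fold change was 0.15 (SE 0.06). *Nexn* (chr3:152236982-152266350) encodes nexilin, a filamentous actin-binding protein of cell junctions and muscle Z-discs. On the log2 scale it had 6.44, 6.58, 6.45 and 6.28 in control replicates 1 to 4 and 7.34, 7.22, 7.01 and 7.09 in null replicates 1 to 4. All 4 null arrays lay above all 4 control arrays, and the log2 fold change of 0.73 (SE 0.06), or 1.65-fold, was much the same within batch 1 (0.77) and batch 2 (0.69). Both *Nexn* and *Actg2* lay below 7.67, the median mean signal of the named transcript clusters.

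The secreted matricellular genes are the targets of YAP and TEAD in the set. *Ccn2* (chr10:24595442-24598683) encodes connective tissue growth factor. The arrays read, in log2 signal, 11.54, 11.46, 11.75 and 11.82 in control replicates 1 to 4 and 11.86, 11.93, 12.33 and 12.15 in null replicates 1 to 4, and again no null array overlapped with a control array. Its log2 fold change was 0.43 (SE 0.06), or 1.34-fold, with 0.40 within batch 1 and 0.45 within batch 2. *Ccn1* (chr3:145646971-145649985), a close relative, had 10.56 and 10.43 in control and 10.48 and 10.72 in null cultures of batch 1, and 10.17 and 10.19 in control and 10.53 and 10.39 in null cultures of batch 2. The groups overlapped in batch 1 and were apart in batch 2, and the log2 fold change was 0.19 (SE 0.07).

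*Vgll3* (chr16:65815189-65866368) encodes a cofactor that binds TEAD factors in place of YAP and TAZ, and was the only one of the 10 genes with a lower estimate in null cells. Its log2 signal was 11.43 and 11.40 in control and 10.68 and 10.62 in null cultures of batch 1, and 10.96 and 10.93 in control and 9.65 and 10.06 in null cultures of batch 2. All 4 null arrays lay below all 4 control arrays. The mean was 11.2 ± 0.274 (SD, n = 4) in control and 10.3 ± 0.491 (SD, n = 4) in null cells, and the log2 fold change was -0.93 (SE 0.09), which is 1.90-fold lower. The difference was -0.77 within batch 1 and -1.09 within batch 2.

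Within batch 1 the null arrays were apart from the control arrays for 6 of the 10 genes, and within batch 2 for 9. The share of all transcript clusters apart within a single batch was not counted, so nothing is read from either number. *Acta2*, *Tagln*, *Nexn*, *Ccn2* and *Vgll3*, 5 of the 10, were apart on the same side in both batches, against 12.1% of all named transcript clusters. This count rests on the contrast the genes were picked on and nothing is read from it.

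**Figure D2:**
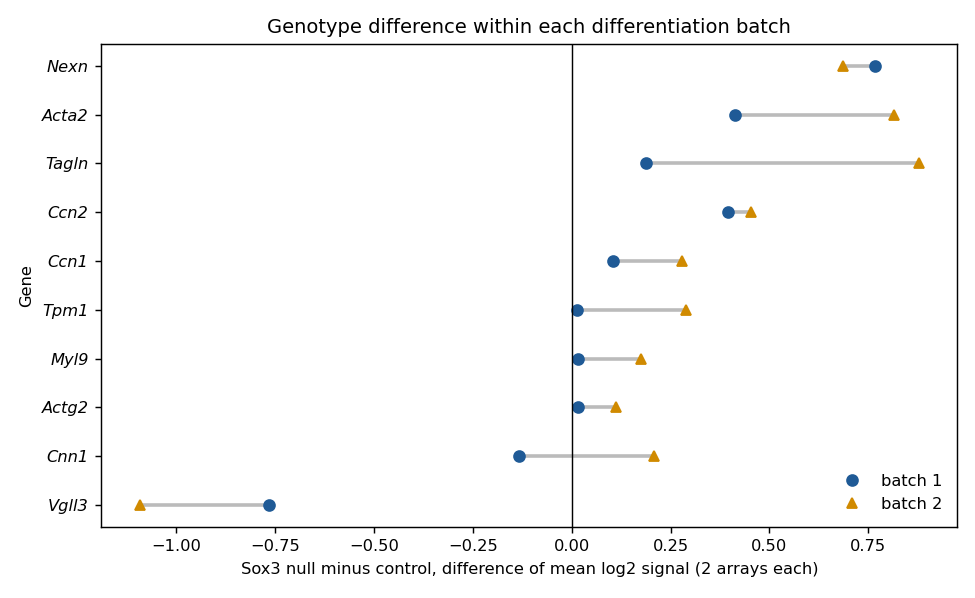
Difference of mean log2 signal between *Sox3* null and control cells (horizontal axis) within batch 1 (blue circles) and batch 2 (orange triangles) for each of the 10 genes, ordered by their log2 fold change; each point compares 2 arrays with 2. *Nexn* and *Ccn2* had much the same difference in each batch, whereas *Tagln* went from 0.19 to 0.88 and *Cnn1* from -0.13 to 0.21.

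The difference between the genotypes appeared larger in batch 2 for several contractile genes, and a genotype by batch term was fitted to test this. Of the 10 genes, 8 had a positive term, meaning a higher null-minus-control difference in batch 2. By limma, 4 had an unadjusted p under 0.05, all 4 positive, against 3.05% of all named transcript clusters (715). They were *Tagln* (0.69, SE 0.15, unadjusted p = 9.37e-04), *Acta2* (0.40, SE 0.10, unadjusted p = 0.00329), *Cnn1* (0.34, SE 0.11, unadjusted p = 0.0124) and *Tpm1* (0.28, SE 0.10, unadjusted p = 0.0224). None passed after adjustment over all transcript clusters (0 of 10 by limma, 0 of 10 by the plain linear model with each gene's own variance), and 0% of the 23410 did. The adjusted p was 1 for each of the 10. For *Nexn* the term was -0.08 (95% interval -0.37 to 0.20) and for *Ccn2* it was 0.06 (95% interval -0.21 to 0.33). *Vgll3* had -0.33, with an interval of -0.69 to 0.04 that includes 0.

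Most of the 10 genes were lower in the second differentiation. Of the 10, 7 fell in batch 2 relative to batch 1 (limma, adjusted p at most 0.05), whereas 9.35% of all named transcript clusters fell. *Ccn2* rose, in the direction taken by 10.9% of all transcript clusters, and *Actg2* and *Nexn* did not pass. The median batch effect of the 10 genes was -0.31, beside 0.0027 over all transcript clusters. *Acta2* had the strongest fall of the 10, with a log2 fold change of -0.78 (SE 0.08, adjusted p = 1.44e-04), followed by *Vgll3* with -0.64 (SE 0.09, adjusted p = 9.23e-04). *Tagln* had -0.51 (SE 0.13, adjusted p = 0.0155), *Cnn1* had -0.43 (SE 0.07, adjusted p = 0.00222), *Myl9* had -0.31 (adjusted p = 0.00444), *Tpm1* had -0.31 (adjusted p = 0.00653) and *Ccn1* had -0.23 (adjusted p = 0.0377). *Ccn2* went the other way, at 0.31 (SE 0.06, adjusted p = 0.00321), although both it and *Ccn1* encode matricellular proteins of the same family. *Nexn* had -0.19 (95% interval -0.32 to -0.05, adjusted p = 0.053) and *Actg2* had 0.06 (adjusted p = 0.62).

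For several of these genes the batch means lay further apart in control than in null cells. *Tagln* had batch means of 9.83 and 8.97 in control cells, and in null cells the means were 10.02 and 9.85 (limma on null arrays alone, adjusted p = 0.472). For *Tpm1* the control means were 11.41 and 10.97 and the null means 11.42 and 11.25. With each genotype fitted alone, 5 of the 10 genes passed in control arrays, where 5.49% of all named transcript clusters did, and 2 in null arrays, where 6.87% did. The difference between those counts was not tested as such, and the genotype by batch terms above are its test gene by gene. The *Tagln* batch call was lost without control replicate 1 (adjusted p = 0.052) and without control replicate 3 (adjusted p = 0.0524). That of *Ccn1* was lost without each of 6 arrays: control replicates 1 (adjusted p = 0.121), 2 (0.0704), 3 (0.106) and 4 (0.0817), and null replicates 2 (0.112) and 4 (0.0852).

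The other genes of these pathways were taken from 7 lists of 105 distinct genes, 103 of them measured. These lists were also drawn up with earlier results of these data known, so their genotype counts are no independent test. For genotype, limma passed 5 of the 103 as higher in null cells and 0 as lower, against the 1.15% and 0.393% of all transcript clusters given above. With the plain linear model 0 passed. At an unadjusted p under 0.05, 16 were higher and 7 lower, against 13.1% of all transcript clusters in either direction, and 23 of the 103 were apart on the same side in both batches, against the 12.1% above. The 5 are *Actc1* and *Mylk* among 32 contractile and SRF-MRTF targets, *F3* and *Tgfb2* among 22 YAP-TEAD targets, and *Tagln3*, a paralog of *Tagln*; *Actc1* is also counted among the paralogs. The median log2 fold change was 0.01 over the contractile list and 0.06 over the YAP-TEAD targets, beside -0.0001 over all transcript clusters. The median of the 10 genes was 0.17, but they were picked on this contrast, so nothing is read from how it compares.

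*Actc1*, cardiac alpha-actin, is also expressed early in other embryonic cells. Its log2 signal was 9.35, 9.48, 9.30 and 8.96 in control replicates 1 to 4 and 10.11, 10.01, 9.92 and 9.76 in null replicates 1 to 4, so that every null array lay above every control array. It rose by a log2 fold change of 0.68 (SE 0.08, adjusted p = 0.00157), with 0.65 within batch 1 and 0.71 within batch 2. Its promoter is shown because it held a CArG box, ending at -38 from the start site, and 3 CArG boxes with 1 G or C in the core, as in the *Acta2* stretches above.
Actc1, chr2:114052876-114053075, minus strand: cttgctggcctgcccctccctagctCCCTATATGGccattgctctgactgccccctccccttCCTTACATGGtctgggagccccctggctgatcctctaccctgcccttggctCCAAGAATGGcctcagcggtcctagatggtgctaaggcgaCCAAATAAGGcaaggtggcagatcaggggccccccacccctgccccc
*Mylk*, the myosin light chain kinase, had 9.35, 9.32, 9.17 and 9.25 in control replicates 1 to 4 and 9.92, 9.91, 9.31 and 9.66 in null replicates 1 to 4. It rose by 0.43 (SE 0.08, adjusted p = 0.0327), with 0.58 within batch 1 and 0.28 within batch 2. Its call was lost without null replicates 1, 2 or 4 and without control replicates 1, 2 or 3 (adjusted p = 0.0804 to 0.123). The promoter of *Mylk*, searched in the same way, held CATTCC, ending at -153, and neither kind of CArG box. The part of such matches in the genotype differences was not tested. *Tagln3*, a neuronal transgelin that the study itself selected on these arrays, rose by 0.52 (SE 0.06, adjusted p = 0.0013), so its call is not independent evidence.

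*F3*, tissue factor, and *Tgfb2*, a TGF-beta ligand, rose in null cells. *F3* had log2 signals of 8.40, 8.44, 7.65 and 7.68 in control replicates 1 to 4 and 8.79, 8.79, 8.23 and 8.27 in null replicates 1 to 4, a log2 fold change of 0.48 (SE 0.06, adjusted p = 0.00171). *Tgfb2* had 8.67, 8.58, 7.54 and 7.60 in control and 8.84, 8.86, 8.24 and 8.32 in null replicates 1 to 4, a log2 fold change of 0.46 (SE 0.09, adjusted p = 0.0264). Its difference was 0.22 within batch 1 and 0.70 within batch 2, and the genotype by batch term was 0.48 (limma, unadjusted p = 9.89e-04, adjusted p = 1). In the fit with the replicate block *Tgfb2* no longer passed (adjusted p = 0.0578), and 4 of the 103 genes did. Its call was also lost without null replicate 3 (adjusted p = 0.0839) or 4 (0.0798) and without control replicate 3 (0.0837) or 4 (0.0714).

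**Figure D3:**
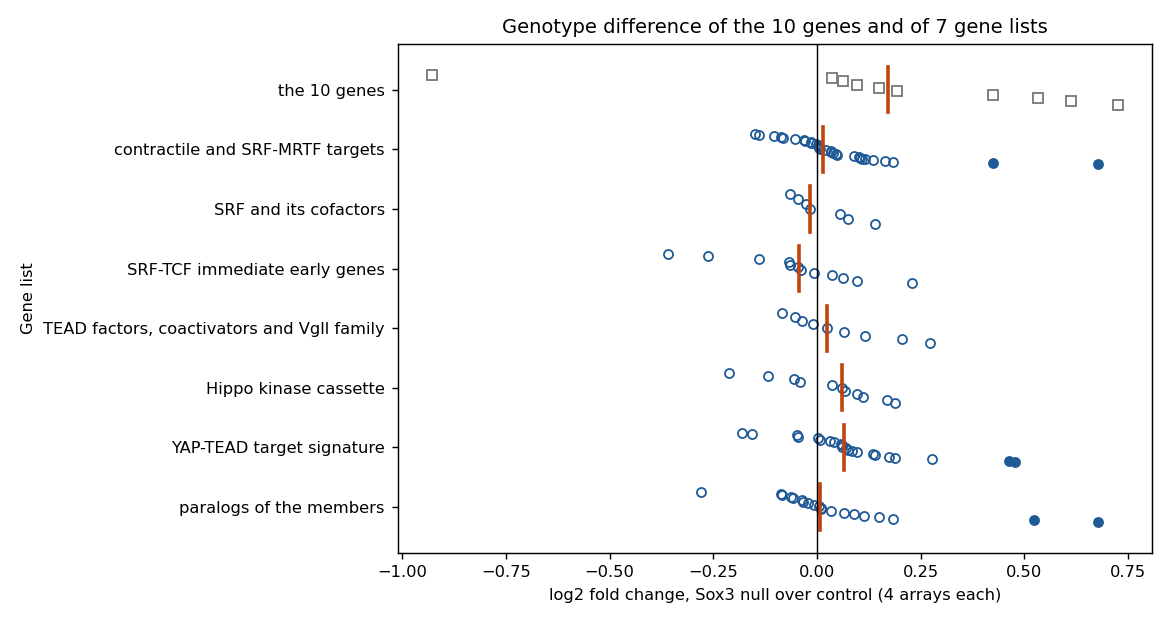
Genotype effect as log2 fold change, null over control (horizontal axis, 4 arrays each), for the 10 genes and for each gene of 7 lists. The 10 genes, picked on this contrast, are grey squares and are shown as a description. List genes are circles, filled where limma's adjusted p was at most 0.05. The red bars are medians. The filled circles are *Actc1* and *Mylk*, *F3* and *Tgfb2*, and *Tagln3* and again *Actc1*, and the list medians lie between -0.04 and 0.06.

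The factors and cofactors of both pathways did not pass for genotype in limma or in the plain linear model. In limma 1.15% of all transcript clusters passed as higher and 0.393% as lower, and 13.1% had an unadjusted p under 0.05. With shares this small, 0 calls in lists of 7 to 12 genes say little about the lists. Of SRF and its cofactors (7 genes), 0 passed and 0 had an unadjusted p under 0.05. As log2 fold changes, *Srf* had -0.05 (95% interval -0.17 to 0.08), *Mrtfa* -0.03 and *Mrtfb* 0.07, and *Myocd*, the smooth muscle cofactor of SRF, was dim and had -0.02. Of 12 immediate early genes downstream of the ternary complex factors, 0 passed (1 higher and 2 lower at an unadjusted p under 0.05), with *Egr1* at -0.26 (adjusted p = 0.0545), *Egr2* at -0.36 (adjusted p = 0.152) and *Atf3* at 0.23 (adjusted p = 0.331). Of 9 TEAD factors, coactivators and other Vgll genes, 0 passed (2 higher at an unadjusted p under 0.05). *Tead4* had 0.27 (adjusted p = 0.107), *Wwtr1*, which encodes TAZ, had 0.20 (adjusted p = 0.192), and *Yap1* had -0.05 (95% interval -0.16 to 0.06). The relatives of *Vgll3* had -0.08 (*Vgll1*), -0.04 (*Vgll2*) and 0.07 (*Vgll4*). Of 11 measured Hippo kinase cassette genes 0 passed (2 higher and 1 lower at an unadjusted p under 0.05), with *Nf2*, an upstream activator of the kinases, at -0.21 and *Lats2* at 0.19. Among paralogs, the cytoplasmic actin *Actb* had -0.01, *Acta1* -0.09, *Cnn2* 0.18, *Cnn3* 0.09, *Tpm2* 0.03, *Tpm4* 0.00, *Myl12a* 0.11, *Ccn3* 0.15 and *Ccn5* -0.28, and none of these 9 passed.

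The batch effect was spread over the pathways. Of the 103 list genes, 45 fell and 2 rose in batch 2, beside 9.35% and 10.9% of all transcript clusters. Of 32 contractile and SRF-MRTF targets, 18 fell and 1 rose (*Tpm2*), with a median of -0.20. *Cald1*, caldesmon, had -0.48 (adjusted p = 2.81e-04) and *Cnn2* had -0.43 (adjusted p = 8.27e-04). *Srf* fell by 0.44 on the log2 scale (adjusted p = 4.26e-04), *Mrtfb* by 0.31 and *Elk4* by 0.42. Of the immediate early genes 7 of 12 fell, among them *Egr2*, a zinc finger factor of hindbrain and glia, by 0.97 (adjusted p = 1.96e-04). Of 22 YAP-TEAD targets 12 fell and 0 rose (limma; 1 higher at an unadjusted p under 0.05, 0 by the plain linear model), so that *Ccn2* moved against this list and *Ccn1* with it. *Tgfb2* fell by 0.81 (adjusted p = 1.95e-04) and *F3* by 0.65 (adjusted p = 6.41e-05). Of the TEAD factors and cofactors *Tead1* (-0.35, adjusted p = 0.00598) and *Wwtr1* (-0.31) fell and *Vgll4* rose by 0.30, whereas *Yap1* had -0.13. With each genotype fitted alone, 10 contractile and 5 YAP-TEAD targets fell in control arrays, and 6 and 5 in null arrays, beside 3.04% and 3.16% of all transcript clusters. The number of YAP-TEAD targets that fell was 8 without control replicate 2. The genotype by batch term had an unadjusted p under 0.05 in limma for 8 of the 103 genes, 6 of them positive, and 0 passed after adjustment, or by the plain linear model.

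**Figure D4:**
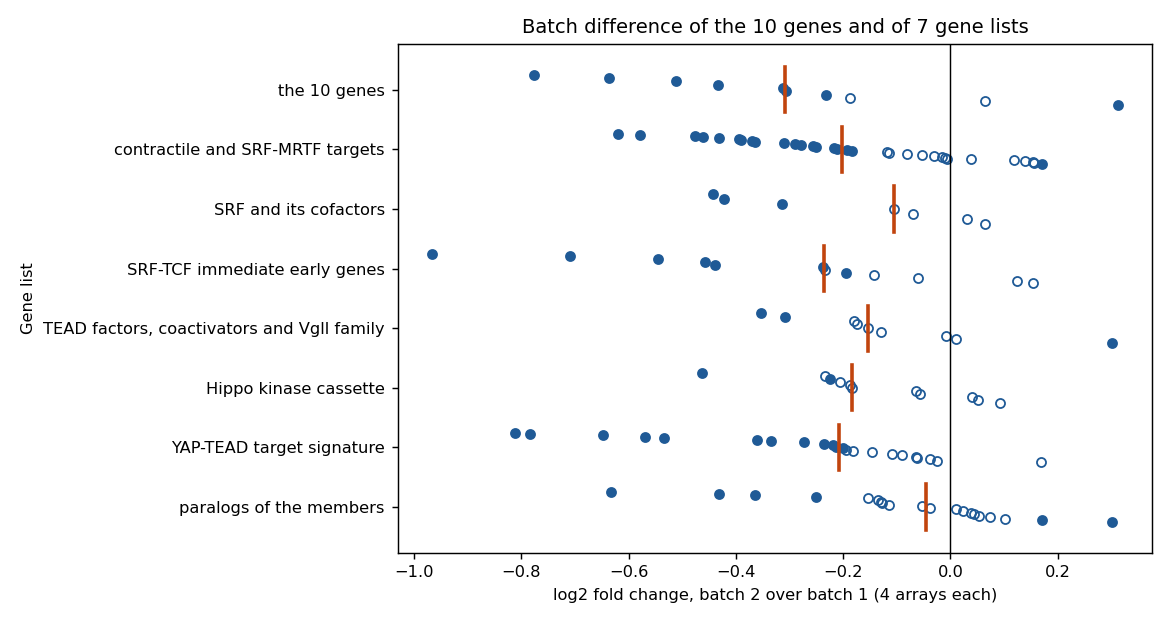
Log2 fold change of batch 2 over batch 1 (horizontal axis, 4 arrays each) for the 10 genes and for each gene of the 7 lists; circles are filled where limma's adjusted p was at most 0.05, and red bars are medians. The median of the 10 genes lies at -0.31, that of the contractile targets at -0.20 and that of the YAP-TEAD targets at -0.21, and *Ccn2* is the filled point at 0.31 in the top row.

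Cell types that make contractile proteins were checked by markers other than the 10 genes. Beside the shares of all transcript clusters that passed for genotype (1.15% higher and 0.393% lower), 1 of 7 smooth muscle markers (*Mylk*) rose in null cells and the others did not pass, and their summed linear signal was 1676 to 1751 on control and 1697 to 1990 on null arrays. *Myh11*, smooth muscle myosin, *Synpo2*, an actin-bundling protein gene, and *Myocd* lay below the median signal on these arrays and had log2 fold changes of -0.08, -0.15 and -0.02, and 4 of the 7 lay below it in all. By limma, and by the plain linear model, 0 of 9 striated and cardiac muscle markers passed, and 0 had an unadjusted p under 0.05 (sums 1238 to 1394 in control and 1157 to 1375 in null cells), and the same held for 0 of 6 endothelial markers (sums 442 to 496 and 433 to 493). Of 11 fibroblast and feeder cell markers, *Thy1* fell (-0.51, adjusted p = 0.00525) and the other 10 did not pass; in the plain linear model *Thy1* did not pass either (adjusted p = 0.141). Their sums overlapped between the genotypes (5334 to 7802 and 5703 to 8052) and not between the batches (7351 to 8052 in batch 1 and 5334 to 6255 in batch 2), and 3 of the 11 fell in batch 2, beside 9.35% of all transcript clusters. Most of each sum came from *Fn1*, the fibronectin gene, with a mean log2 signal of 12.40 against 8.36 or less in the others. Of the 11, 8 lay below the median signal, so these sums follow *Fn1* more than the list. Of the neural progenitor markers 3 of 6 also fell in batch 2, among them *Sox9* (-0.51) and *Nes* (-0.31), and of the neural crest markers 3 of 6 fell, among them *Tfap2b* (-0.78), and 1 rose. The sums of these lists overlapped between the batches, at 15104 to 17625 and 13532 to 16619 for neural progenitor markers and at 2713 to 3651 and 2399 to 3441 for neural crest markers. These differences lie along the same batches as the fall of the contractile genes, and their part in that fall was not tested.

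Some markers of neural progenitor and neural crest cells moved with genotype. Of 6 neural progenitor markers, *Nes* (0.49, adjusted p = 0.00947) and *Sox9* (0.51, adjusted p = 0.00325) rose, beside 1.15% of all transcript clusters, all 6 had estimates above 0, and the sums were 13532 to 15223 in control and 16373 to 17625 in null cells. All 6 lay above the median signal, as did none of the 6 endothelial markers. *Sox1* (0.11, adjusted p = 0.673), *Sox2* (0.21, adjusted p = 0.0825) and *Pax6* (0.12, adjusted p = 0.279) did not pass by limma. At an unadjusted p under 0.05, 4 of the 6 were higher, beside 13.1% of all transcript clusters in either direction. By quantitative RT-PCR (qRT-PCR) on the samples used for these arrays, the study found no significant difference in any of *Sox1*, *Sox2* and *Pax6*. Of 6 measured neural crest markers, *Tfap2b* (0.71, adjusted p = 0.00765) and *Ednrb* (0.51, adjusted p = 9.22e-04) rose and 4 did not pass. Estimates lay above 0 for 3 of the 6 and below 0 for 3. Their sums were 2399 to 2783 in control and 3352 to 3651 in null cells, with 4 of the 6 below the median signal. These sums therefore follow the brighter markers more than the list. *Ednrb* was selected by the study on these same arrays, so its call is not independent evidence. The study also tested *Ednrb* by qRT-PCR on independent samples, and there the change was not reproduced. In the plain linear model *Ednrb* passed (adjusted p = 0.0394), and *Nes* (0.179), *Sox9* (0.121) and *Tfap2b* (0.198) did not. Neural crest cells and their smooth muscle derivatives can express *Acta2* and *Tagln*, and the part of these cells in the genotype differences was not tested.

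Once genotype and batch were taken out, the 10 genes had no common direction. Among the 45 pairs, the correlation over the 8 arrays after each genotype and batch mean was subtracted had a median of -0.25, ran from -0.85 to 0.96, and was above 0 in 19. These values share the arrays and rest on pairs of arrays in 4 cells, so they describe only what little spread was left, with an SD per gene of 0.0399 (*Tpm1*) to 0.147 (*Vgll3*) on the log2 scale. On the same measure the transcript clusters most like *Acta2* were *Tox4*, *Gjc1* and *Zbtb33* (r = 0.996 to 0.998), those most like *Nexn* were *Gins1*, *Rbm48* and *Cacul1* (all 0.998), and those most like *Vgll3* were *Myo5b*, *Mtfmt* and *Sncaip* (0.997 to 0.999). None of these is among the 10 genes or on the pathway lists. For each of the 10 genes the 3 highest r lay between 0.993 and 1.000. With 2 arrays per genotype and batch, few free values were left for each gene. The highest r among many transcript clusters can then be this high by chance. Nothing is therefore read from these names or from their absence from the lists.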

How the data were processed

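Affymetrix Mouse Gene 1.0 ST arrays measured RNA in 4 *Sox3* null and 4 control Day 4 cultures, each genotype with 2 arrays in each of 2 differentiation batches. The authors deposited log2 values for 35556 transcript clusters after their own normalization, and the submitters' processing notes name Partek. How they were normalized and summarised, and the genome build, were not given in the sources used here. Of the rows, 21789 had 1 gene symbol, 1621 several and 12146 none in the annotation at hand. Symbols were updated through the RefSeq gene table of GRCm38.p6, which matched 21698 of the rows with 1 symbol and gave the gene positions.

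Genotype and batch were fitted together over all 23410 named rows in limma 3.58.1 (R 4.3.3), since the study's methods use batch as a factor, and a second fit added a genotype by batch term. P-values were adjusted over all named rows by the Benjamini-Hochberg method at a threshold of 0.05, with a fold change of 1.4 where stated. Summaries were made in Python 3.11.15 (pandas 2.3.3, numpy 2.4.6) and plots with matplotlib 3.10.9. The number of arrays limits the precision: the median SD of 2 arrays of the same genotype and batch was 0.087 on the log2 scale.

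The 10 genes and the gene lists were chosen with earlier results of these data known. Genes named are the 10, *Sox3*, the SRF cofactor, TEAD and Vgll, and paralog lists, up to 4 genes of each other list with the smallest genotype p, every list gene that passed for genotype, and the 3 transcript clusters most like each of the 10. *Fn1* and *Sox1* are named in addition. The brightest transcript cluster stands for a gene with several.

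The labels give both genotypes the sample numbers 1 to 4. Same-numbered samples deviated together from their genotype means (correlations 0.392, 0.449, 0.678 and 0.455), and they share a batch. With batch means also subtracted the correlations were -0.324 in batch 1 and 0.305 in batch 2. A fit with the number as a block was an alternative.

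On simulated arrays of this design with 23410 transcript clusters, of 100 changed by 0.5 on the log2 scale 82% passed for genotype, 88% for batch and 18% for the genotype by batch term, and of 100 changed by 1, 100%, 100% and 73% did. The alternatives were all rows, dim transcript clusters left out, batch as a random block or no batch term, the plain linear model, an intensity trend, array weights, a further quantile normalization, the mean of a gene's transcript clusters, each batch or genotype alone and leaving out each array.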

Additional observations from a re-analysis of the deposited data

Results flagged for a closer look

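For *Actg2*, 1 null array lay apart from the others: null replicate 3 had a log2 signal of 6.37, the other null arrays 6.14 to 6.15, and the gap took 0.969 of the group's range. For *Tagln3*, control replicate 4 had 9.21 against 9.02 to 9.03 in the other control arrays, a gap of 0.968 of the range. With 30 groups of 4 arrays examined, chance alone flags about 1 group in 20.

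The genotype difference of *Cnn1* turned between the batches, from -0.13 in batch 1 to 0.21 in batch 2, with both null arrays below both control arrays in batch 1 and above them in batch 2. The genotype by batch term was 0.34 (limma, unadjusted p = 0.0124, adjusted p = 1).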

How the results depend on the processing

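The sign of the genotype difference turned for *Cnn1* in batch 1 alone (-0.13) and without null replicate 4 (-0.03). The genotype difference of *Actg2* reached -0.0041 with an array left out. Both are given as a description. The 8 batch effects of the 10 genes and the 5 genotype effects of list genes that passed kept their sign in every alternative; those of the other genes were not followed gene by gene. The count of list genes that passed for genotype, 5 as reported, was 3 over all rows, 2 with batch as a random block, 1 without a batch term, 0 in the plain linear model, 0 in batch 1 alone and 1 in batch 2 alone, and 3 to 4 with an array left out (3 without control replicate 3 or null replicate 4, 4 without any other). With the replicate block it was 4, *Tgfb2* being lost, and the 6 marker genes that passed for genotype still passed; the block was not run on the batch or genotype by batch effects, since it takes up the batch. The count of the 10 genes that passed for batch, 8 as reported, was 5 in control arrays alone, 2 in null arrays alone and 7 to 8 with an array left out. Contractile targets that fell in batch 2, 18 as reported, were 10 in control arrays alone and 6 in null arrays alone (14 to 17 with an array left out), and YAP-TEAD targets, 12 as reported, were 5 in each (8 to 13). Fits on the arrays of 1 genotype or 1 batch rest on 4 arrays. The count of the 10 genes with a genotype by batch effect stayed at 0 under the 15 alternatives.

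The adjusted p for genotype ran from 4.24e-04 to 0.116 for *Actc1*, from 8.88e-04 to 0.719 for *F3*, from 5.51e-04 to 0.139 for *Tagln3*, from 0.0147 to 0.827 for *Tgfb2* and from 0.00323 to 0.691 for *Mylk* over 20 alternatives, with 4, 5, 3, 10 and 12 of them above 0.05. For batch, *Acta2* and *Vgll3* passed in all 17 alternatives, *Cnn1* and *Tpm1* missed in 1, *Myl9* and *Ccn2* in 2, *Tagln* in 5 and *Ccn1* in 10. The cause of these changes was not tested.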
